A study of Mus musculus with 2 samples.

Results

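The genes encoding the intermediate filament proteins of neurons and glia were followed in mouse hippocampus: Nefl, Nefm, Nefh, Ina, Prph, Gfap, Vim and Nes. They were chosen by exact gene symbol in the transcript tables, and all 8 were found among 55536 annotated genes, with 21 annotated transcripts between them. The RNA came from the hippocampus, labelled as one of its layers, of female mice aged 25 days. The mice were B6CASTF1/J, first-generation hybrids between C57BL/6 and CAST, a strain derived from wild mice, with no treatment or engineered allele named. The single group held 2 biological replicates, each made into a stranded, ribosomal-RNA-reduced total RNA library; the input was 300 ng, and ERCC control RNAs were spiked in. The labels give separate biosamples and the same donor entry for both, so the spread between them may be partly or wholly technical. With 1 group there was no condition to compare, and no p-value is given.

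Intermediate filaments are built from rod-shaped proteins that pair as coiled coils and pack into rope-like fibres. In neurons, neurofilament light (Nefl), medium (Nefm) and heavy (Nefh) chains assemble with alpha-internexin (Ina), fill the axon and help set its calibre, while peripherin (Prph) is known mostly from peripheral neurons and some central neurons with peripheral projections. Gfap is the filament protein by which astrocytes are recognised, vimentin (Vim) is made by radial glia, astrocytes and the cells of vessels and meninges, and nestin (Nes) by neural stem cells and dividing endothelium.

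The shared part of these proteins can be read in the coding sequence at the end of the rod, where a short motif that closes the last helix is among the best conserved stretches of the family. The window is shown because it sets the 4 chains of central axons beside Prph and Nes at the same place. It covers 39 coding bases of the leading transcript of each of these 6 genes, 5′ to 3′, from the GENCODE M21 transcripts on mm10, with the bases that encode the motif in capitals.
Nefl-201, chr14:68086082-68086508, + strand, exons 2 and 3: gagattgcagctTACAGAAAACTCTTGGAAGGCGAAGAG
Nefm-201, chr14:68121363-68122837, - strand, exons 2 and 3: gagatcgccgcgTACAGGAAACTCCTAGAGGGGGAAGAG
Nefh-201, chr11:4941394-4943867, - strand, exons 3 and 4: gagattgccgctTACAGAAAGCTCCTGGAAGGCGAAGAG
Ina-201, chr19:47021941-47023356, + strand, exons 2 and 3: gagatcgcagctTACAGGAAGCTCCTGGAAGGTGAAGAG
Prph-201, chr15:99057435-99057473, + strand, exon 6: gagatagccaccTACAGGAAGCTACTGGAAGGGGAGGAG
Nes-201, chr3:87973100-87974823, + strand, exons 2 and 3: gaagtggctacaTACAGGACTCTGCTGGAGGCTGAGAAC
Prph carried the window within exon 6. In Nefl, Nefm, Nefh, Ina and Nes an exon boundary fell inside it. Nefh had the same base as Nefl at 36 of the 39 positions, Ina at 34 and Nefm at 31. Prph matched Nefl at 29. Nes matched Nefl at 22, the lowest of the 5 comparisons with Nefl. Outside the rod the genes diverged in size, from 1425 coding bases without the stop codon in Prph-201 to 3270 in Nefh-201 and 5592 in Nes-201.

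That likeness left the genes with few runs of bases in common. Runs of 31 bases were compared across all annotated transcripts, each read on its own strand only. Nefl, Nefh, Ina, Gfap and Nes shared 0 of theirs with another gene. Vim shared 9 of 4812, all with the keratin gene Krt75. Nefm shared 14 of 5738, and Prph 11 of 2025, most of them with desmin (Des). This comparison could not find bases shared by overlap on opposite strands, as between Nefm and Nefl.

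Depth was 34919989 expected counts in replicate 1 and 41206890 in replicate 2. Expected counts are reads divided among transcripts by the authors' quantification, and TPM, a measure of transcript abundance, divides them by effective length and scales each library to the same total, so levels of different genes can be compared. Each library also has a second deposited quantification. Nuclear protein-coding genes held 43.4% and 42.0% of TPM in replicates 1 and 2 in the first, and 73.5% and 74.0% in the second, and all 8 members had higher TPM in the second. In whole-tissue RNA, fewer cells of a type and less RNA per cell cannot be told apart.

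Neurofilament light led the group. Nefl (ENSMUSG00000022055.7, chr14:68083863-68089095, + strand) stood at 196 and 181 TPM in replicates 1 and 2, from 15505 and 17839 expected counts, a mean of 189 ± 10.9 (SD, n = 2). It ranked 303 of 22015 nuclear protein-coding genes, whose median was 3.21 TPM. This is the chain on which the others co-assemble, and it was the most abundant RNA of the 8 in both libraries.

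Gfap (ENSMUSG00000020932.14, chr11:102887336-102900912, - strand) came second, at 121 and 130 TPM from 7360 and 9927 counts, a mean of 125 ± 6.88. Ina (ENSMUSG00000034336.3, chr19:47014698-47025327, + strand), the chain that central neurons make early and keep in mature axons, was at 77.2 and 76.9 TPM, a mean of 77.1 ± 0.198. Nefm (ENSMUSG00000022054.11, chr14:68082590-68124846, - strand), whose long tail projects from the filament, was at 53.0 and 43.0 TPM, a mean of 48.01 ± 7.06. Each library of Gfap lay above both of Ina, and each of Ina above both of Nefm.

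Vim (ENSMUSG00000026728.9, chr2:13573927-13582826, + strand) was at 25.4 and 23.4 TPM, a mean of 24.4 ± 1.42. Nefh (ENSMUSG00000020396.8, chr11:4938754-4948064, - strand), the chain added last as axons mature, was at 17.8 and 15.8 TPM, a mean of 16.8 ± 1.38. Their means were 7.60 TPM apart against 2.80 for the sum of their SDs, the measure of spread used here for neighbours in the order.

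The lowest levels belonged to Nes and Prph. Nes (ENSMUSG00000004891.16, chr3:87971078-87980451, + strand) was at 2.83 and 1.87 TPM from 343 and 333 counts, a mean of 2.35 ± 0.679, below the median of nuclear protein-coding genes. Prph (ENSMUSG00000023484.14, chr15:99055174-99058978, + strand) was at 0.590 and 0.570 TPM from 19 and 18 counts. Their means were 1.77 TPM apart against a sum of SDs of 0.693, so even the lowest pair differed by more than its spread. Of 5 markers of peripheral sensory neurons and Schwann cells, 0 reached 1 TPM in both libraries, their summed level was 0.210 and 0.340 TPM, and Isl1 was at 0 in both; the highest of them by mean was Avil, at 0.0700 and 0.280 TPM.

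**Figure D1:**
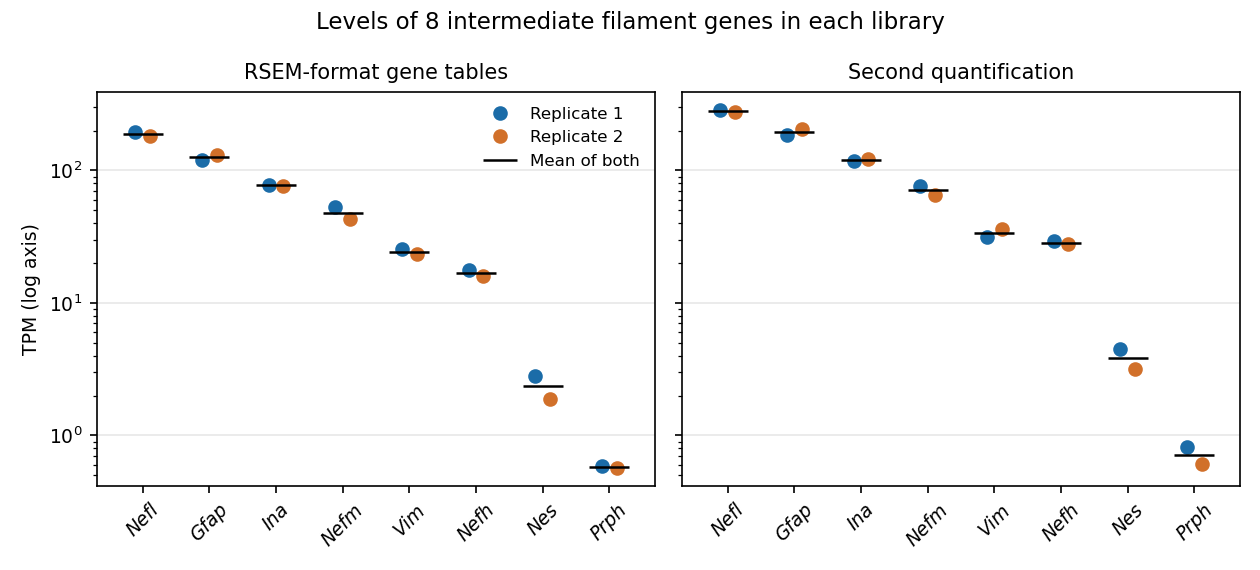
Level of each gene in TPM (log axis) in the RSEM-format gene tables (left) and the second quantification (right); points are the 2 libraries and bars their mean. The order from Nefl at 189 TPM to Prph at 0.580 TPM is the same on both sides.

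All 7 neighbouring pairs in the order differed by more than their spread, and the same order held in the second quantification and after TPM was rescaled over nuclear protein-coding genes. The order of 1 pair depended on which transcripts were summed. With protein-coding transcripts alone, an alternative chosen after the data were seen, Vim was at 16.0 ± 0.0212 TPM and Nefh at 16.8 ± 1.38, a difference of 0.810 against a spread of 1.40, so their order was not resolved. In the second quantification, protein-coding Vim was at 26.7 ± 0.355 TPM and Nefh at 28.5 ± 1.17, a difference of 1.84 against 1.53, and here Nefh was the higher.

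The neuronal chains were far from equal in RNA. Nefl, Nefm, Nefh and Ina together reached 344 and 317 TPM, a mean of 331 ± 19.6. Of that sum Nefl made 57.03% and 57.13%, Ina 22.4% and 24.3%, Nefm 15.4% and 13.6% and Nefh 5.2% and 5.0% in replicates 1 and 2. The shares in the second quantification were close, with Nefl at 56.1% and 56.2% and Nefh at 5.74% and 5.65%. Ina RNA thus exceeded Nefm RNA in both libraries, 1.46-fold and 1.79-fold.

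As ratios within a library, Nefl was 3.71 and 4.21 times Nefm, and 11.04 and 11.43 times Nefh. The second quantification gave 3.97 ± 0.339 for Nefl to Nefm, against 3.96 ± 0.354 in the first, and 9.86 ± 0.128 for Nefl to Nefh, against 11.2 ± 0.272. The ratio to Nefh therefore moved with the quantification by more than the spread between libraries. Nefm was 2.85 ± 0.186 times Nefh, and Nefl was 325 ± 10.9 times Prph.

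Among the glial and precursor genes, Gfap, Vim and Nes summed to 149 and 156 TPM, a mean of 152 ± 4.78. Gfap exceeded Vim 4.74-fold and 5.56-fold in replicates 1 and 2, and Nes 42.6-fold and 69.6-fold. Nefl exceeded Gfap 1.63-fold and 1.39-fold, so the gap between the leading neuronal and the leading astrocytic filament narrowed in replicate 2.

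Markers of the cells that make these proteins were present at very different levels. Excitatory neuron markers summed to 3072 and 2741 TPM and were led by Camk2a and Nrgn, and GABAergic interneuron markers to 393 and 417, led by Sst and Gad1. The 5 astrocyte markers summed to 713 and 712 TPM, with Aldoc at 344 ± 2.61 and Slc1a3 at 172 ± 3.38 both above Gfap. Stem and precursor markers summed to 80.8 and 77.8 TPM, led by Hopx, which astrocytes also express, at 34.97 and 35.05 TPM, and Sox2, at 20.8 and 19.2. The proliferation gene Mki67 was at 0.830 and 0.730 TPM, below Nes in each library.

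Markers of cells that share Vim or Nes with the astroglial lineage, and of other cells of the tissue, were also measured. Endothelial markers, led by Cldn5, summed to 52.2 and 44.2 TPM, mural markers, led by Vtn and Rgs5, to 62.6 and 60.7, and fibroblast markers, led by Dcn, to 31.5 and 41.5. Choroid plexus markers, led by Ttr, summed to 27.2 and 59.5 TPM, and ependymal markers, led by Foxj1, to 3.65 and 3.46. A list of 5 genes drawn up for the projection axons of large neurons summed to 7.31 and 6.95 TPM, nearly all of it Slc17a6. That list holds none of the excitatory neuron markers above and does not measure those neurons. Markers of oligodendrocyte precursors, led by Gpr17, summed to 60.3 and 59.1 TPM, and those of microglia, led by Csf1r, to 90.7 and 85.8. How much of Vim or Nes came from each of these cells was not tested.

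Gfap was transcribed in the form that ends in exon 9 and, at a lower level, in a form that ends early. Gfap-201 has 9 exons and 2648 bases. Gfap-202 has 8 exons and 2600 bases, and its last exon lies in the intron after exon 7, the layout of the delta form of the protein, which is known from astrocytes and stem-cell-like glia and carries a different tail. Gfap-203, a non-coding transcript of 356 bases, starts upstream of both.

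The end of the coding sequence of Gfap-202 is shown because it sets that form apart: 12 bases of exon 7 in lower case, then the bases of its own last exon up to and including the stop codon in capitals. It is read on the - strand of mm10 in the GENCODE M21 transcripts.
Gfap-202, exon 8, chr11:102891396-102891520: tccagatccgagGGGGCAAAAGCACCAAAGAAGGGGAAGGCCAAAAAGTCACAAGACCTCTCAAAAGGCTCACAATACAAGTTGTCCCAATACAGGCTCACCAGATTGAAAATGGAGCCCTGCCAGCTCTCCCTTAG
Gfap-202 ends in 125 coding bases of its own, stop codon included. Over whole transcripts, 1472 bases of Gfap-201 and 1424 of Gfap-202 occur in no other Gfap transcript.

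Gfap-201 was at 108 and 118 TPM and made 90.0% and 90.9% of Gfap TPM in replicates 1 and 2. Gfap-202 was at 11.8 and 11.5 TPM and made 9.78% and 8.81%. Gfap-203 made 0.230% and 0.320%, from 1.72 and 3.20 expected counts. The long form thus made most of Gfap RNA in both libraries.

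Counted as shares of Gfap expected counts, Gfap-202 made 9.63% in replicate 1 (Clopper-Pearson 95% interval 8.97% to 10.3%) and 8.68% in replicate 2 (8.14% to 9.25%). These intervals overlap, and they cover counting error only, since reads without molecular identifiers are not independent molecules and reads were divided among transcripts by estimate. The second quantification gave Gfap-202 a larger part, 15.9% and 14.7% of Gfap TPM, from 1205 and 1496 estimated counts against 709 and 862 in the first. Gfap-201 was 9.21 and 10.3 times Gfap-202 in the first and 5.28 and 5.80 times in the second. The choice of quantification moved this ratio by far more than the spread between libraries.

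**Figure D2:**
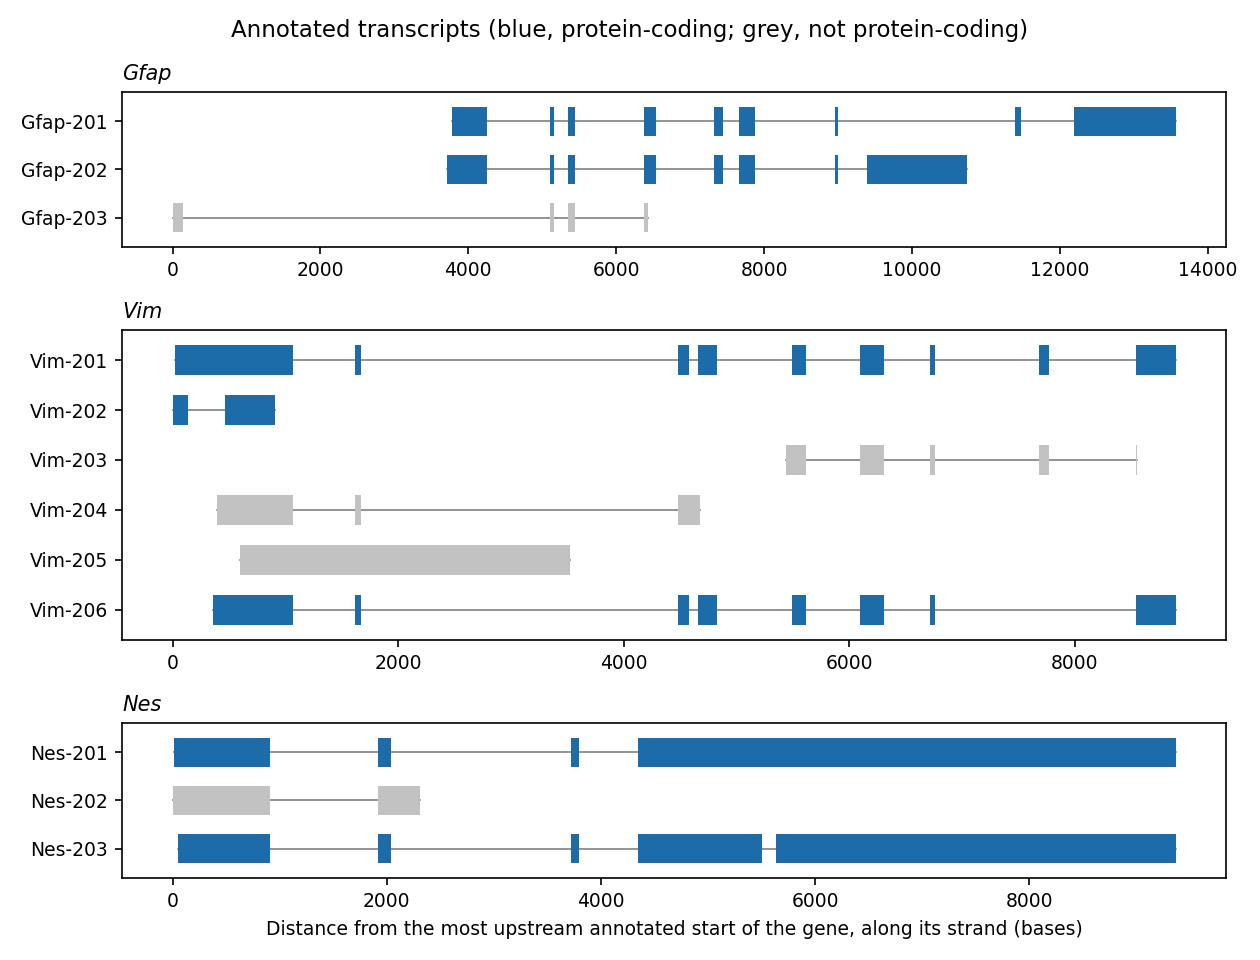
Exons (boxes) and introns (lines) of every annotated transcript of Gfap, Vim and Nes, by distance in bases along the gene's strand from its most upstream annotated start; blue is protein-coding and grey is not. Gfap-202 ends in its own exon between exons 7 and 8 of Gfap-201. Vim-206 lacks exon 8 of Vim-201 and starts further downstream. Nes-203 has a gap of 132 bases in the last exon of Nes-201.

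The neurofilament chains were simple by comparison. Nefl, Nefh and Ina have 1 annotated transcript each. Nefm-201 made 97.2% and 96.1% of Nefm TPM, and Nefm-202 the remaining 2.84% and 3.89%. Nefm-202 runs on to a last exon that overlaps the first exon of Nefl on the opposite strand by 1108 bases (chr14:68083863-68084970), or 30.1% of Nefm-202. The libraries are stranded, per the labels, but the strand setting used in counting is not given in the sources used here, so reads there may belong to either gene. For the same reason Ina is uncertain where it overlaps Nt5c2 on the opposite strand, a gene at 29.5 and 28.9 TPM.

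The leading form of Vim depended on the quantification. Vim-206, which lacks exon 8, led with 35.0% and 39.3% of Vim TPM, and Vim-201, the form with 9 exons, had 28.1% and 28.9%. In the second quantification Vim-201 led with 76.9% and 66.1%, and Vim-206 had 8.13% and 7.25%. The forms differ at their start, where exon 1 has 1043 bases in Vim-201 and 714 in Vim-206, and after exon 7. The junctions that follow exon 7 are shown because the splicing of the forms differs there, with the bases after the junction in capitals.
Vim-201, exons 7 and 8, chr2:13580669-13581627, + strand: ccctgaacctgagagAAACTAACCTGGAGT
Vim-206, exons 7 and 8, chr2:13580669-13582480, + strand: ccctgaacctgagagGTGATCAA
The exon 8 of Vim-206 is the ninth exon of Vim-201, so Vim-206 has no base of its own and 1 junction of its own. Every other stretch of it is also in another Vim transcript.

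Vim-203, a retained-intron transcript of 535 bases, was the other large share. It made 34.7% and 31.1% of Vim TPM from only 11.2% and 9.58% of Vim expected counts, and 11.96% and 26.02% in the second quantification. Transcripts of Vim that are not protein-coding together made 37.0% and 31.7% of its TPM, but 13.4% and 10.7% of its expected counts. In the second quantification they made 14.9% and 26.6% of its TPM.

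The leading form of Nes was not settled in the first quantification. By TPM, Nes-201 led in replicate 1 with 46.8%, ahead of Nes-203 with 34.0%. In replicate 2 they were nearly level, Nes-203 with 50.3% and Nes-201 with 49.7%. By expected counts Nes-201 led in both libraries, with 55.9% and 50.4%. In the second quantification Nes-201 led in both, with 73.4% and 83.8%. The stretch of exon 4 that Nes-201 has and Nes-203 lacks is shown because it is the one interior difference between the coding forms; it is given whole in lower case.
Nes-201, exon 4, chr3:87976581-87976712, + strand: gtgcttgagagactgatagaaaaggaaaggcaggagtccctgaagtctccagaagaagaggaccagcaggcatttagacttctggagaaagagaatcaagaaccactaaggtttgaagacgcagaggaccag
This stretch is 132 bases, a whole number of codons, and 130 of them (98.5%) are the same in the 132 bases that follow it in Nes-201. The tail of nestin is repetitive, and here one repeat unit is nearly a copy of the next. Nes-203 has 0 bases and 1 junction of its own.

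Prph was too low for its transcripts to be ordered. Prph-201 made 76.4% and 56.1% of its TPM and Prph-203 the rest, the latter from 1.00 and 2.22 expected counts. In the second quantification Prph-201 made 100% in both libraries. Of the 5 genes with more than 1 transcript, 4 had the same leader by mean share in both quantifications, Vim being the exception; in replicate 2 alone Nes differed as well.

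**Figure D3:**
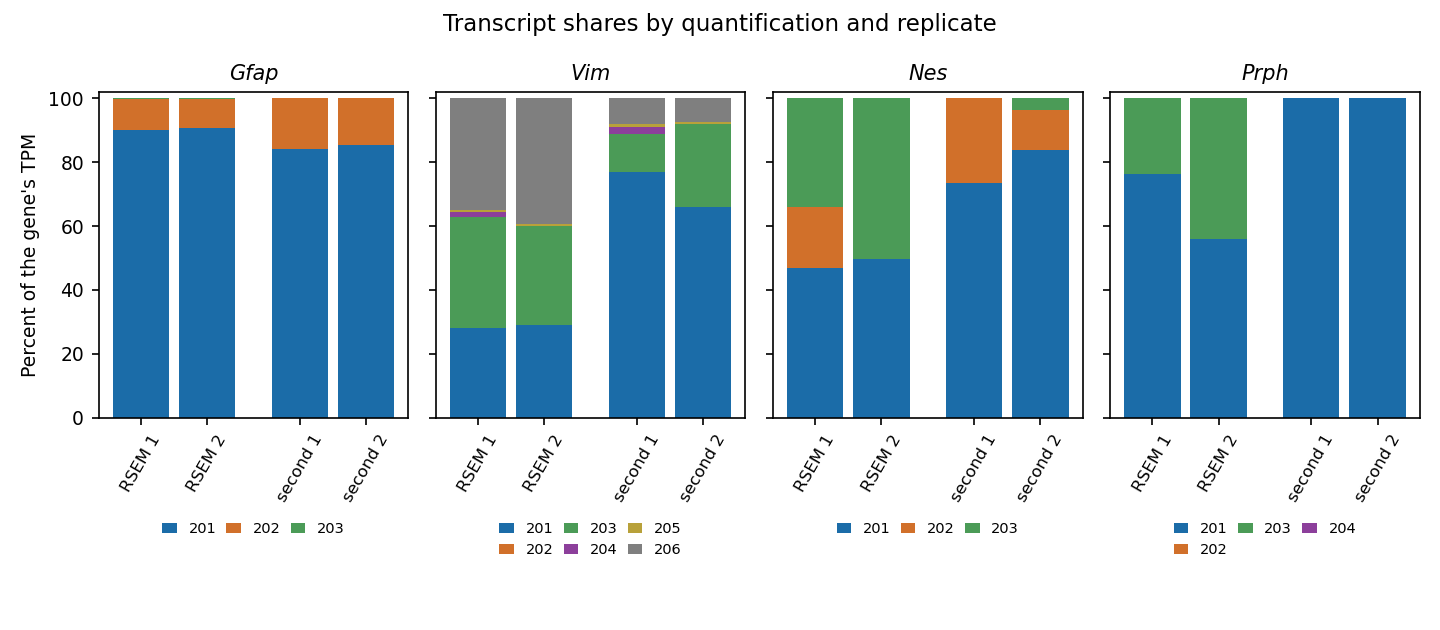
Percent of each gene's TPM held by each annotated transcript of Gfap, Vim, Nes and Prph in replicates 1 and 2, for the RSEM-format tables and the second quantification. Gfap-201 holds over 84% in all 4 columns, while the largest Vim share passes from Vim-206 to Vim-201 between quantifications.

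The libraries were then set against each other, 1 against 1, to see how repeatable the levels were. Of the 8, 7 had at least 200 expected counts over both libraries, and 6 of those were lower in replicate 2 by TPM, as were 64.9% of all genes with as many counts. Of the 7, 0 were at least 2-fold apart, where 0.825% of those 12962 genes were. By the smaller measure of at least 25% apart, the higher library over the lower, 1 of the 7 passed, Nes, where 15.5% of all those genes did. With TMM scaling of the counts 0 of the 7 passed, where 9.07% of genes did, and in the second quantification Nes alone, where 18.5% did. The median log2 ratio of the 7 was -0.12 against -0.07 for all those genes.

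Nefl was lower in replicate 2 at a ratio of 0.921 (95% counting interval 0.902 to 0.941). Nefm was lower at 0.812 (0.777 to 0.848) and Nefh at 0.890 (0.833 to 0.952). The 3 neurofilament chains were thus all lower in replicate 2, on every scaling tried. With TMM the ratios rose to 0.979 for Nefl, 0.863 for Nefm and 0.946 for Nefh, with a median log2 ratio of 0.02 over all genes. The counting intervals given are for TPM alone. By TPM 64.9% of all genes were lower too. All 4 excitatory neuron markers were lower by TPM, with a ratio of 0.892 for their sum, and 4 of the 5 GABAergic interneuron markers were higher, with a ratio of 1.06. In the second quantification and with TMM the excitatory marker Slc17a7 was not lower. The part of either marker list in the neurofilament ratios was not tested.

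Ina had a ratio of 0.996 (0.962 to 1.03), which became 1.06 with TMM scaling and 0.925 with spike-in scaling, so its direction was set by the scaling. Gfap was higher in replicate 2 at 1.08 (1.05 to 1.11). Its ratio was 1.11 in the second quantification, 1.15 with TMM scaling and 1.00 with spike-in scaling. The astrocyte markers as a sum had a ratio of 0.998 by TPM and 1.01 in the second quantification. With TMM, Aldh1l1, Aldoc, Gja1 and Slc1a3 were higher, at log2 ratios of 0.215, 0.144, 0.118 and 0.092. Aqp4 was lower, at -0.033, and Gfap was at 0.199 on that scale.

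Vim had a ratio of 0.921 (0.839 to 1.01) by TPM, 1.14 in the second quantification and 1.02 with TMM scaling, so its direction also flipped. Restricted to protein-coding transcripts it was 0.998 by TPM and 0.981 in the second quantification. Its protein-coding RNA therefore differed by less between libraries than its total in both quantifications. Fibroblast markers as a sum had a ratio of 1.32, carried by Dcn at 14.3 and 24.8 TPM. Lum was higher too, at 0.880 and 1.18 TPM from 50 and 83 counts. By TPM Col1a1, at 8.03 and 7.81, and Col1a2, at 8.30 and 7.67, were lower in replicate 2. With TMM both were higher, at log2 ratios of 0.035 for Col1a1 and 0.070 for Col1a2. In the second quantification Col1a1 was higher, at 0.072, and Col1a2 lower, at -0.018. Choroid plexus markers had a ratio of 2.19, carried by Ttr at 23.5 and 55.1 TPM, while Kl was at 3.43 and 3.38. The part of these cells in Vim was not tested.

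Nes was the member with the largest difference, at 0.661 (0.567 to 0.771) by TPM. Its expected counts were 343 and 333, and the effective length the authors' tables gave it was 5042 and 5943 bases. The short retained-intron transcript Nes-202 had 0.540 TPM in replicate 1 and 0 in replicate 2. With protein-coding transcripts alone the ratio was 0.820, and with TMM-scaled counts 0.826, both less than 25% apart. All 5 endothelial markers were lower in replicate 2 by TPM, where 64.9% of all genes were, with a ratio of 0.846 for their sum; in the second quantification Pecam1 was not lower and the ratio was 0.901. Their part in Nes was not tested. Prph, below 200 counts, had a ratio of 0.966 with an interval from 0.478 to 1.94.

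**Figure D4:**
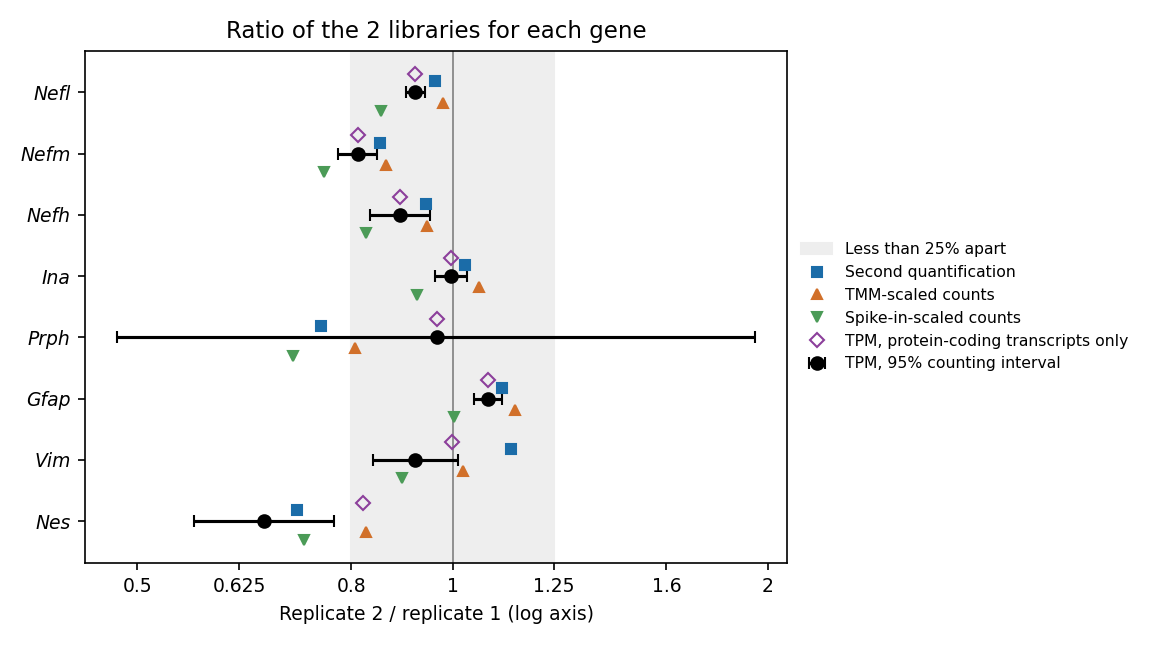
Ratio of replicate 2 to replicate 1 (log axis) for each gene by TPM with its 95% counting interval, and by the second quantification, TMM scaling, spike-in scaling and protein-coding transcripts alone; grey marks less than 25% apart. By TPM, Nes at 0.661 is the gene outside the grey band, and it enters the band with protein-coding transcripts alone.

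Other members of the superfamily were far lower as a sum, though not gene by gene. Of 38 other intermediate filament genes, 13 were at 1 TPM or more in both libraries and 10 were at 0 in both, and the 38 summed to 105 ± 5.78 TPM against 483 ± 14.8 for the 8. Iffo1, a filament family orphan, was highest at 28.1 ± 3.34, above Vim in each library. Lmna, which encodes lamins A and C of the nuclear lamina, was at 14.8 ± 0.474, and Lmnb2, a B-type lamin, at 7.28 ± 0.240. Krt222, a keratin-like gene, was at 11.1 TPM in both libraries. Synm, whose product synemin joins filaments of vimentin and Gfap, was at 8.29 ± 0.495. Of the 11 with 200 counts, 0 were at least 25% apart by TPM, where 15.5% of all genes were.

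Genes whose products bind, link or carry the filaments were abundant. Of 11, 8 reached 1 TPM in both libraries. Kif5a, a kinesin that carries neurofilaments along axons, was at 300 ± 0.587 TPM, above Nefl. Sptbn1, a beta-spectrin of the membrane skeleton, was at 241 ± 21.1. The giant linkers Macf1 and Dst were at 89.7 ± 15.2 and 83.1 ± 10.5, and Myo5a, a myosin that binds neurofilament light chain, at 79.7 ± 9.36. All 9 with 200 counts were lower in replicate 2 by TPM, where 64.9% of all genes were, with a median log2 ratio of -0.35. Kif5a was at a log2 ratio of -0.004 by TPM. It was higher with TMM, at 0.088, and in the second quantification, at 0.042, while the others stayed lower on both. By TPM, replicate 1 was at least 25% above replicate 2 in 5 of the 9, as it was in 13.1% of all genes. That count of 5 fell to 2 with TMM scaling, where 5.78% of all genes were that much lower, and to 2 in the second quantification, where 14.7% were.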

How the data were processed

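Total RNA of 2 libraries of 1 group was analysed. The authors deposited gene and transcript tables in the RSEM column format, holding expected counts, TPM and FPKM, and for transcripts the percent that each makes of its gene, per the file headers. A second deposited transcript table, in the kallisto column format, holds estimated counts and TPM, which were summed per gene. The labels name mm10, and the deposited notes GENCODE M21; aligner and strand setting: not given in the sources used here. Names and coordinates came from GENCODE M21.

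TPM was used as deposited. Ratios between libraries were taken where both together had 200 or more expected counts, with a floor of 3 counts; their 95% intervals are Clopper-Pearson limits on the split of counts, moved to the TPM scale. Expected counts were rounded to whole numbers for TMM (edgeR 4.0.16) and size factors (DESeq2 1.42.0). Neighbours in level were said to differ where the difference of means exceeded the sum of SDs. The ratio rule was tested on simulated data. Tables were handled in pandas 2.3.3 under Python 3.11.15, with scipy 1.17.1 for intervals, matplotlib 3.10.9 for plots, numpy 2.4.6 for arithmetic and R 4.3.3 for scaling factors.

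The members and lists were chosen with earlier results of these data known. The text names all 8 members and the 5 genes of highest mean TPM in each of the other filament and partner lists. It also names all Gfap transcripts, leading transcripts and those at 5% or more, and the leading 1 or 2 genes of each marker list reported. Mki67, Isl1, Col1a1, Lum, Kl, Folr1, Aqp1, Pecam1, Slc17a7, Aldh1l1, Gja1 and Aqp4 were named after their values were seen. Alternatives were the second quantification, TPM over nuclear protein-coding genes, posterior mean TPM, FPKM, counts per effective length, TMM, DESeq2 and spike-in scaling, other minimums and thresholds, each replicate alone and, added later, protein-coding transcripts. Some sequences of the members and 1 marker list are not reported here.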

Additional observations from a re-analysis of the deposited data

How the results depend on the processing

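The sum of the 8 genes, 483 TPM, lay between 473 and 494 TPM with either replicate left out, was 734 in the second quantification and 1132 when TPM was rescaled over nuclear protein-coding genes, and was 726 over protein-coding transcripts of the second quantification. The 1 member at least 25% apart between libraries became 0 with TMM scaling, 0 with DESeq2 size factors and 2 with spike-in totals. Of the 12962 genes with 200 counts, 15.5% were that far apart by TPM, 9.07% with TMM or DESeq2 and 20.9% with spike-in totals. Over protein-coding transcripts the 1 member became 0 in each quantification. Over all genes, spike-in scaling gave a median log2 ratio of -0.17 and TMM 0.02, against -0.07. The 107 genes at least 2-fold apart became 1176 with a minimum of 20 counts, 2376 with the floor of 3 alone, 189 in the second quantification and 65 with TMM. The 2006 genes at least 25% apart became 5572, 8724 and 1176 with the first 2 minimums and TMM; of the 2006, 308 were higher in replicate 2, and of the 1176 with TMM 427 were. Leading transcripts above 50% in both libraries numbered 3 of the 5 genes with several transcripts, and 5 in the second quantification. The mean Gfap-201 share of 90.4% was 84.7% there. The 13 other filament genes at 1 TPM were 20 at 0.1 TPM and 7 at 5 TPM. The causes were not tested. Nefl to Nefm lay between 3.71 and 4.21 with a replicate left out. Depth limits Prph, with 19 and 18 counts, and the transcripts of Nes. No paired analysis was possible because there is 1 group.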
